A study of Homo sapiens with 7 samples.

Results

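Double-stranded RNA of HCT116 cells given the Combination was compared with that of cells given PBS, in 4 of the 7 libraries of the series. The members were chosen by the treatment label alone, and each Combination library was set against the PBS library of the same deposited workbook, called set 1 and set 2 here. HCT116 is an established human colon carcinoma line. Each library holds RNA pulled down with J2, an antibody against double-stranded RNA, after digestion of single-stranded RNA with RNase T1, and its reads were counted over copies of endogenous retroviruses, with their flanking long terminal repeats (LTRs). One protocol text, given for every sample, describes 0.3 µM of 5-Aza-CdR, a change of medium after 24 h and culture to day 5. The labels do not define the Combination. In the published account of the study it is 5-Aza-CdR with vitamin C, and no dose of vitamin C is given in the sources used here. The PBS libraries are the untreated controls. The 3 libraries of 5-Aza-CdR alone (1 in each set) and of Vc alone (1, in set 2) entered the fits, where they helped set the spread, the scaling, the set term and which families and copies had enough reads to be tested.

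5-Aza-CdR (5-aza-2'-deoxycytidine) is built into DNA during replication and traps DNA methyltransferases, so that methylation is lost as cells divide. Vitamin C is a cofactor of the TET enzymes, which oxidise 5-methylcytosine. LTRs flank the internal, protein-coding part of an endogenous retrovirus and carry its promoter, and many of them are held silent by DNA methylation. RNA from repeats can pair with complementary RNA, and long double-stranded RNA is sensed in the cytoplasm by MDA5, a receptor of the interferon response. LTR12C is an LTR of the HERV-9 retroviruses, a primate-specific group.

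After the reads of 2 single copies were set aside, the locus sheets held 23026 reads for PBS and 14235 for the Combination in set 1, and 19358 for PBS and 32311 for the Combination in set 2, spread over 703140 annotated copies. These 2 copies, of HERVE_a-int on chromosome 6 and MER11B on chromosome 3, held over 10% of the locus reads of a library. HERVE_a-int alone took 80.3% of the locus reads of PBS and 61.8% of those of the Combination in set 1, and the family sheet of that set lists it at 0. The family sheets held 23131 and 14319 reads for PBS and the Combination of set 1, and 19342 and 32275 for those of set 2, over the 498 families present in both. The PBS library of set 1 stood apart in a further way. At an equal depth of 10815 reads outside the LTR12 and HERV9 families, its reads lay on 4226 copies, against 7835 in the Combination of set 1, 6879 in PBS of set 2 and 7054 in the Combination of set 2. The name of the set 2 workbook refers to marked duplicates, and that of set 1 does not. Handling of duplicate reads may thus differ between the sets. Its part in any contrast between them cannot be told apart from other differences, and was not tested. Each treatment has 2 libraries, and the labels do not say whether these came from separate cultures. P-values measure how far treatment differences varied between the sets, with the spread pooled in part over families and wholly over copies. This spread may therefore be technical. Intervals below are at 95%. Apart from those of the joint fit, they cover counting error alone and treat each read as a separate molecule. Reads amplified by PCR and carrying no molecular identifier need not come from separate molecules, so these intervals can be too narrow. No gene is counted in the files, so the identity of the cells was not checked against markers. In such bulk libraries a change in the number of cells that hold an RNA and a change in the amount per cell cannot be told apart.

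The first question was which repeat families differed in double-stranded RNA between the Combination and PBS. Of the LTRs of the HERV-9 group, LTR12, LTR12C, LTR12E and LTR12_ were higher in the Combination relative to other repeats. So were 2 HERV-Fc proviral families, LTR48B and LTR10F, and MSTB2 was lower. Of 352 families tested with edgeR, 8 rose (2.27% of those tested) and 1 fell (0.284%), at a Benjamini-Hochberg adjusted p of 0.05. The median log2 change over all families tested was -0.07. Rises and falls are relative to the other repeats, since the scaling of the fit centres on the typical family.

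LTR12C held 286 reads in PBS and 2926 in the Combination of set 1, and 851 and 8655 in set 2. Both Combination libraries lay above both PBS libraries. As a share of all family reads this was 1.24% and 20.4% in set 1, and 4.4% and 26.8% in set 2. Per family read the Combination exceeded PBS by 16.5-fold (14.6 to 18.7) in set 1 and 6.09-fold (5.68 to 6.55) in set 2. The joint log2 change was 3.58 (SE 0.52, edgeR adjusted p = 0.00246).

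Among the other LTRs of the same group, LTR12, LTR12_ and LTR12E also rose. LTR12 had 33 and 130 reads in PBS and the Combination of set 1 and 25 and 269 in set 2. Its ratios of 6.36 (4.31 to 9.63) and 6.45 (4.27 to 10.1) differed little between the sets, and the joint log2 change was 2.97 (SE 0.35, edgeR adjusted p = 6.0e-04). LTR12E went from 7 to 46 reads and from 13 to 94 (log2 change 3.00, SE 0.42, edgeR adjusted p = 0.00223). LTR12_ went from 18 to 74 and from 34 to 154 (2.31, SE 0.38, edgeR adjusted p = 0.00561).

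The remaining members of the group did not pass. LTR12D had 108 reads in PBS and 127 in the Combination of set 1, and 83 and 430 in set 2 (log2 difference 1.53, edgeR adjusted p = 0.0562). HERV9-int, the internal region of the provirus, had 117 and 122, then 90 and 439 (1.41, adjusted p = 0.0884). LTR12B had only 5 and 9, then 2 and 38 reads (2.65, adjusted p = 0.137), and LTR12F had 28 and 18, then 9 and 23 (0.49, adjusted p = 0.776). In all, 4 of the 8 families of the LTR12 and HERV9 list rose and 0 fell, with a median log2 difference of 2.48 against -0.07 over all families.

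**Figure D1:**
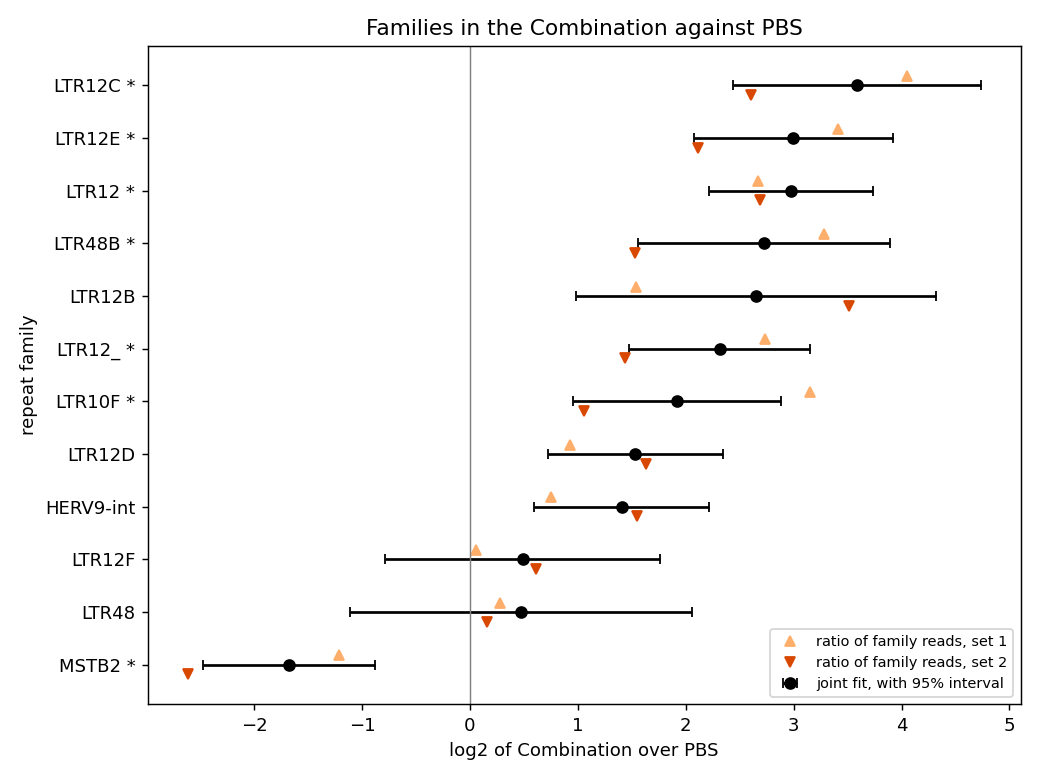
Log2 of Combination over PBS for 12 named families. Black points are the joint fit with its 95% interval, triangles are the ratios per family read in set 1 (pointing up) and set 2 (pointing down), and a star marks families past the threshold. LTR12C stands at 3.58 and MSTB2, lower per family read but higher per tRNA read in set 1, at -1.67, and the HERV-Fc families are not drawn because they had 0 reads in both PBS libraries.

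HERV-Fc1 and HERV-Fc2 are small groups of proviruses related to gamma retroviruses. HERV-Fc2-int had 0 reads in both PBS libraries, 48 in the Combination of set 1 and 106 in that of set 2. Against a floor of 3 counts per PBS library, and per family read, the Combination was higher by at least 25.8-fold in set 1 and by at least 21.2-fold in set 2 (edgeR adjusted p = 2.4e-04). Only 3 copies are annotated, and 1 of them held 91.7% and 87.7% of these reads. HERV-Fc1-int, with 7 annotated copies, also had 0 reads in both PBS libraries, and 9 and 36 in the Combination. Against the same floor its ratios were 4.85 in set 1 and 7.19 in set 2 (edgeR adjusted p = 0.0136). Its lower limits with PBS at 0 were 3.19 and 5.55. The HERV-Fc list holds 6 families, and these 2 had enough reads to be tested. With 0 reads in PBS they could pass the filter on low counts only through treated libraries, so their direction was fixed by the filter and is read beside the 2.27% of all families that rose. HERV-Fc1-int did not pass without the Combination library of set 2.

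LTR48B, an LTR of the ERV1 class, had 7 reads in PBS and 42 in the Combination of set 1, and 6 and 29 in set 2 (log2 change 2.72, SE 0.53, edgeR adjusted p = 0.0168). One copy held 73.8% of the Combination reads in set 1, and a different copy led in set 2 with 37.9%. LTR48B did not pass without the Combination library of set 1. LTR48, the second family of that list, had 8 and 6, then 7 and 13 reads and did not pass. LTR10F belongs to the HERV-I retroviruses and had 2 and 11 reads in set 1, then 48 and 167 in set 2 (1.92, SE 0.44, edgeR adjusted p = 0.0428). Its raw counts overlapped between the groups over both sets, and within each set the Combination was higher. The call was lost in 6 of 12 alternatives, among them those with total reads (edgeR adjusted p = 0.0840), without the Combination library of set 1 (0.258) and without that of set 2 (0.238). LTR10F was the only one of 7 families tested in the LTR10 and HERVI list to rise, and the median log2 difference of that list was 0.78.

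MSTB2, an LTR of the MaLR group, was the family that fell. It had 86 reads in PBS and 23 in the Combination of set 1, and 191 and 52 in set 2 (log2 change -1.67, SE 0.36, edgeR adjusted p = 0.0332). One copy on chromosome 5 held 170 of the 191 PBS reads in set 2, and another held 60.5% of the PBS reads in set 1. This call was lost in 5 of 12 alternatives, among them those with only the 4 PBS and Combination libraries (edgeR adjusted p = 0.0829), without the Combination library of set 1 (0.225) and without that of set 2 (0.430). Scaled by the tRNA reads that only set 1 gives, MSTB2 was 3.90-fold higher in the Combination of set 1. Of 12 families tested in the MST list, 0 rose and 1 fell, with a median log2 difference of -0.34.

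The families with most reads of the Combination in the family sheets, beside LTR12C, did not pass in either direction. This ranking leaves out the dominant HERVE_a-int and MER11B copies of set 1. They held 61.8% and 10.1% of the Combination locus reads of that set. HERVH-int (internal sequence of HERV-H proviruses) had 832 reads in PBS and 358 in the Combination of set 1, and 2324 and 2751 in set 2 (log2 difference -0.24). The other 8 such families were MLT1A0, MLT1B, MLT1C, MLT1D, MER21C, MSTA, THE1B and THE1B-int, with log2 differences between -0.41 and 0.08. Among HERV-H families and their LTR7 flanks 0 of 6 passed (median 0.04), in the THE1 list 0 of 9 (median 0.06), in the MLT1 list 0 of 42 (median -0.18) and in the MLT2 and HERVL list 0 of 16 (median 0.13). The HERV-K lists did not pass either, with 0 of 4 for LTR5 and HML-2 (median 0.28) and 0 of 15 for other HERV-K groups (median 0.43). The remaining lists were LTR17 with HERV17 (0 of 2, median 0.64), LTR2 with HERVE (0 of 5, -0.07), MER41 (0 of 6, -0.69) and MER4 (0 of 11, -0.23). For HERVE_a-int the family fit had reads from set 2 alone, since it is listed at 0 in set 1. By part of the provirus, 2 of 91 internal regions rose and 0 fell (median 0.01), and 6 of 261 LTRs rose and 1 fell (median -0.08).

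The choice of scale decided how many families were higher in set 1. Among 80 families with at least 100 reads in the PBS and Combination libraries of set 1, 6 reached a 2-fold gain and 13 a 2-fold loss per family read, with a median log2 ratio of -0.38. Per tRNA read, 75 reached the gain and 1 the loss, with a median of 2.80, because the tRNA number was 232558 for PBS and 15946 for the Combination. In set 2, which gives no tRNA number, 8 of 95 families reached the gain and 12 the loss per family read, with a median of -0.45, and 9 and 3 did so with DESeq2 size factors. These within-set ratios compare 1 library with 1 library and carry no test. The family calls depended on the libraries in the fit. Without PBS of set 1, 22 families rose and 9 fell. Without PBS of set 2, 34 rose and 32 fell. When only the PBS and Combination libraries entered, 6 rose and 0 fell. HERV-Fc2-int and LTR12 rose in 12 of 12 alternatives, and LTR12C in 9, with a log2 change from 3.16 to 4.09 over all 12. LTR12C did not pass with only these 4 libraries, without the term for the set, or without the 5-Aza-CdR and Vc libraries of set 2 (largest edgeR adjusted p = 0.434).

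The second question was how widely over the genome the LTR12C signal was spread. In the Combination it came from a large part of the annotated LTR12C copies, though unevenly. The 100 copies with most reads held 40.6% of LTR12C reads in the Combination of set 1 and 32.8% in that of set 2. In PBS they held 96.7% and 46.3%. How reads mapping to several copies were counted is not known, and it bears on all numbers of copies with reads. Of 2656 copies, 109 had at least 1 read in PBS of set 1 (4.10%, Wilson interval 3.41 to 4.93) and 1108 had one in the Combination (41.7%, 39.9 to 43.6). There were 520 in PBS of set 2 (19.6%, 18.1 to 21.1) and 1658 in its Combination library (62.4%, 60.6 to 64.2). Thinned to 14235 locus reads in every library, the numbers were 80.8 and 1108 copies in set 1 and 412 and 1238 in set 2. The thinned Combination to PBS ratio was 13.7 in set 1 and 3.01 in set 2.

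For families outside the LTR12 and HERV9 list, with 696751 copies, the direction depended on what was made equal. At the same thinned depth 4786 of these copies had reads in PBS and 7835 in the Combination of set 1, and 8189 and 6509 in set 2. The ratio was above 1 in set 1 (1.64), where the PBS reads lay on few copies, and below 1 in set 2 (0.795). LTR12C took a larger part of the reads in the Combination than in PBS in both sets. The cause of the difference in direction was not tested. With 10815 reads of these families themselves in every library, as given above, the Combination was higher in both sets (4226 and 7835 copies, then 6879 and 7054). In set 2 this difference was small. For LTR12 and HERV9 copies other than LTR12C (3731 in all), the thinned numbers were 63.6 and 322 in set 1 and 125 and 364 in set 2. Those were higher in the Combination of both sets.

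The number of LTR12C reads itself was then made equal. Thinned to 272 LTR12C reads, the number found in PBS of set 1, the expected copies with reads were 109 in that library, 210 in the Combination of set 1, 207 in PBS of set 2 and 221 in the Combination of set 2. PBS of set 1 lay below the other 3 libraries, which stood close together. The copy with most reads held 12.5% of LTR12C reads in PBS and 4.70% in the Combination of set 1, and 11% and 2.23% in set 2. Copies with at least 10 reads numbered 2 in each PBS library, 31 in the Combination of set 1 and 220 in that of set 2.

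**Figure D2:**
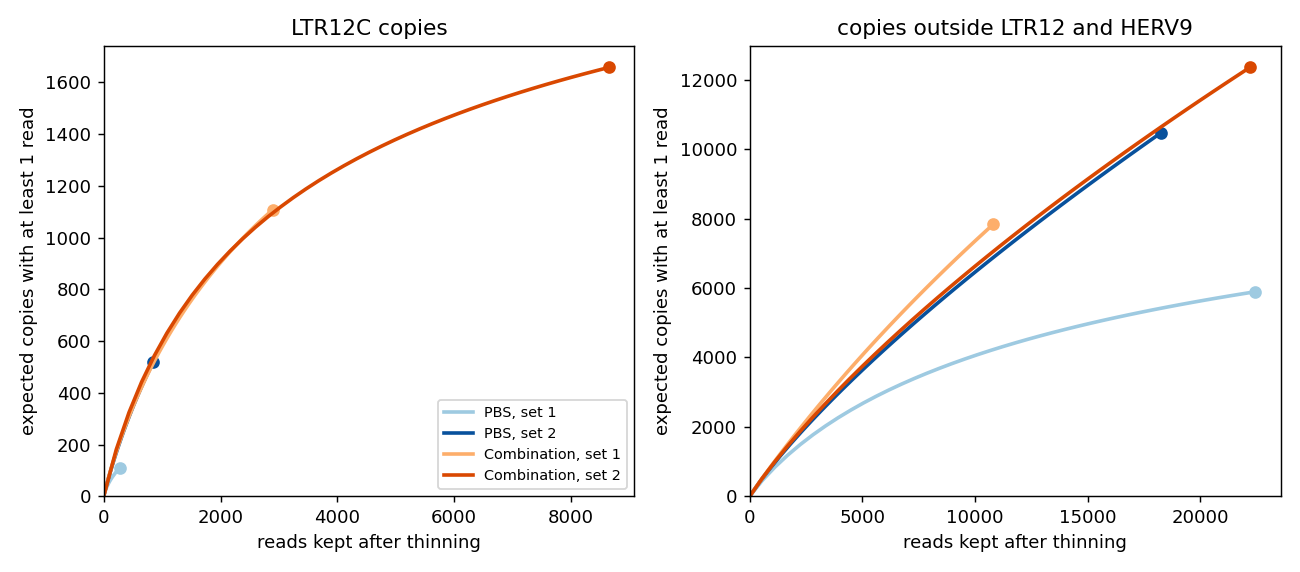
Copies expected to have at least 1 read when a library is thinned to the number of reads on the horizontal axis, for LTR12C (left, LTR12C reads) and for copies outside the LTR12 and HERV9 families (right, reads of those copies), with 1 curve a library and a point at its full depth. On the left the 2 Combination libraries and PBS of set 2 lie on nearly 1 curve, at 207 to 221 copies for 272 reads against 109 in PBS of set 1, and on the right PBS of set 1 lies below the others.

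The sets were then compared copy by copy. In the Combination, 906 LTR12C copies had reads in both sets, which is 81.8% of those with reads in set 1 and 54.6% of those in set 2. In PBS the number was 45, or 41.3% of set 1 and 8.65% of set 2. Outside the LTR12 and HERV9 list, 1307 copies were shared in the Combination (16.7% and 10.6%) and 1010 in PBS (17.1% and 9.65%). These shares move with depth and were not tested. Of 2072 LTR12C copies with no read in either PBS library, 602 had reads in both Combination libraries, against 674 of 681405 such copies outside the LTR12 and HERV9 list. In the opposite direction, 796 LTR12C copies had no read in either Combination library and 1 of these had reads in both PBS libraries, against 312 of 677868 outside that list. No read was found in any of the 4 libraries at 729 LTR12C copies.

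The third question was which single copies differed. Of 409 copies with at least 30 reads over the 7 libraries, 108 rose (26.4% of those tested) and 29 fell (7.09%) in edgeR's test. LTR12C supplied 104 of the tested copies, of which 85 rose and 0 fell. Among the 305 tested copies of other families, 23 rose (7.54%) and 29 fell (9.51%). Scaled by the reads outside the 2 dominant copies, 97 of the 104 LTR12C copies were higher in the Combination of both sets (93.3%), against 40 of the 305 others (13.1%). Of the 108 copies that rose, 58 had 0 reads in both PBS libraries. The 85 LTR12C copies that rose lay on 21 chromosomes and were 324 to 1918 bases long, with a median of 1508. A copy with 0 reads in PBS could enter this test only through its treated libraries, so the counts describe the copies tested and not all copies.

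These calls on single copies rest on few reads and were not stable. In the copy fit the spread was taken wholly from all copies together. A disagreement between the sets at 1 copy therefore did not widen the spread used for that copy. With DESeq2, 18 copies rose and 0 fell. Without the Combination library of set 1, 0 rose and 0 fell in edgeR's test, although 53 copies had an unadjusted p under 0.05. Without the Combination library of set 2, 12 rose and 2 fell.

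Among named copies, in hg19 coordinates, an LTR12C of 1547 bases on the plus strand of chromosome 13, at 111473323 to 111474869, had 2 reads in PBS and 46 in the Combination of set 1, and 1 and 77 in set 2. Its log2 change was 5.52 (SE 1.05, edgeR adjusted p = 2.0e-05). An LTR12C on the minus strand of chromosome 1, at 175070212 to 175072001, counted 7 and 46 in set 1 and 0 and 193 in set 2 (5.11, SE 0.91, edgeR adjusted p = 4.8e-06). The copy on chromosome 4, at 88316262 to 88317662, had 0 reads in both PBS libraries and 37 in each Combination library. Also at 0 in both PBS libraries were an LTR12C on chromosome 1 at 154643044 (15 and 25 Combination reads) and one on chromosome 15 at 70878531 (13 and 19). The LTR12C on chromosome 14 at 24053109 had reads in PBS too, with 1 and 42 in set 1 and 16 and 59 in set 2 (2.89, SE 0.95, edgeR adjusted p = 0.0122). All 6 of these LTR12C copies rose in the test, as did 26.4% of all copies tested. They were named for a large rise in both sets or for 0 reads in PBS, so their direction was fixed by that choice.

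The HERV-Fc2-int copy that led its family lies on the plus strand of the X chromosome, at 97096856 to 97104052, and spans 7197 bases. It had 0 reads in both PBS libraries, 44 in the Combination of set 1 and 93 in that of set 2. The leading HERV-Fc1-int copy, on chromosome 7 at 64295616 to 64300190, had 0 reads in both PBS libraries and 6 and 21 in the Combination. An LTR48B of 592 bases on chromosome 6 at 27106003 had 0, 31, 0 and 6 reads in PBS and the Combination of set 1 and then of set 2. An MLT1C of 411 bases on chromosome 2 at 242486123, of a MaLR family that did not pass as a whole, had 0 reads in both PBS libraries and 18 and 36 in the Combination. An MLT2F on chromosome 18 at 47795693, an LTR of the HERV-L class, had 0 and 16 in set 1 and 7 and 25 in set 2. These 5 copies rose too. They were named for the same reasons or as the leading copy of a family that rose, so their direction was largely fixed as well.

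Among the leading copies of the other families that rose, LTR12_ on chromosome 1 at 146989266 had 0 PBS reads and 2 and 16 Combination reads, and LTR10F on chromosome 6 at 161730686 had 0 PBS reads and 2 and 22. Both rose in the test. The leading LTR12 copy (chromosome 10, 17053187) had 5 and 10 Combination reads and the leading LTR12E copy (chromosome 6, 92590917) had 3 and 10, with 0 in PBS, and both held too few reads to be tested. An LTR13 on chromosome 17 at 41400486 counted 23 and 34 in set 1, then 12 and 48, and did not pass (log2 difference 1.56, edgeR adjusted p = 0.157). A HERV4_I-int on chromosome 11 at 94383676 had 0 and 10, then 3 and 11 reads, and did not pass either (adjusted p = 0.0564).

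Of the 29 copies that fell, 19 had at least 90% of their PBS reads in set 1, 14 were lower in both sets and 3 had Combination reads in both. The MLT1C on chromosome 12 at 34180589 had 25 reads in PBS and 0 in the Combination of set 1, and 9 and 2 in set 2 (log2 change -3.63, SE 1.38, edgeR adjusted p = 0.0286). The MSTB2 copy on chromosome 5 at 862748 had 0 reads in both libraries of set 1 and 170 and 30 in set 2 (-2.87, SE 1.12, edgeR adjusted p = 0.0348). An MER77 on chromosome 19 at 45165235 (37 and 1, then 28 and 25 reads), a HERVH-int on chromosome 1 at 68852123 (33 and 1, then 22 and 26) and an MLT1D on chromosome 2 at 37327416 (43 and 7, then 12 and 12) did not pass. Neither did an MSTA-int on chromosome 4 at 53528305, with 25 and 0, then 5 and 2 reads. The HERVE_a-int copy on chromosome 6, at 4428317 to 4428782, held 106889 and 31334 reads in set 1, then 8 and 5, and did not pass (adjusted p = 0.230).

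**Figure D3:**
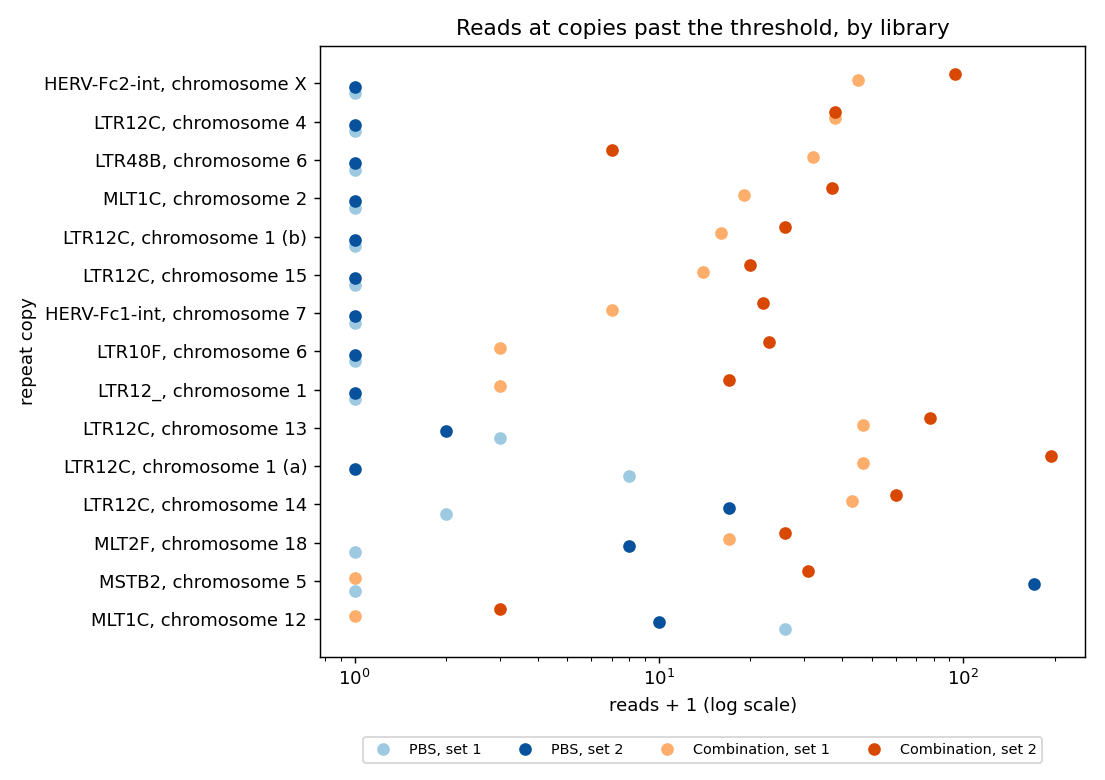
Reads plus 1 (log axis) at 15 named copies that passed the test, in the 4 PBS and Combination libraries. In 9 of them both PBS libraries stand at 0 reads. The 2 copies at the bottom are those that fell, and the MSTB2 copy has reads in set 2 alone.

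By family, the calls on single copies ran as follows. The LTR12 and HERV9 list had 111 tested copies, of which 88 rose and 0 fell. In the LTR7 and HERVH list 0 of 30 copies rose and 0 fell. The LTR10 and HERVI list had 3 of 16 that rose and 0 that fell. The MLT1 list had 6 that rose and 10 that fell of 69, the THE1 list 2 and 7 of 30, and the MST list 1 and 3 of 25. The shares over all copies tested were 26.4% for rises and 7.09% for falls.

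A few of the copies that rose were neighbours. Joined over gaps of at most 20000 bases, the 108 copies made 99 stretches, of which 5 held more than 1 copy and 3 held more than 1 family. On chromosome 1, from 175070212 to 175078158, a pair of LTR12C copies and the HERV9-int between them rose, with 9 reads in PBS and 68 in the Combination of set 1, then 1 and 425, for the stretch. On chromosome 13, from 111473323 to 111483016, the LTR12C named above was followed by an MLT1J2, an MSTB and an MLT1C, all of which rose, with 2 and 56 reads in set 1, then 2 and 156. On chromosome 6, from 161728150 to 161736146, an MLT2A2, an LTR10F and an HERVIP10FH-int rose together, with 0 and 10, then 0 and 71 reads. No LTR12C of at least 1000 bases lay within 10000 bases of this last stretch. Copies of 1 stretch can share 1 transcript or 1 read mapping, so they are not independent of each other.

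The fourth question was whether copies of other families near LTR12C had more reads in the Combination. This comparison was chosen after seeing the neighbouring copies. Every copy outside the LTR12 and HERV9 families was placed by its distance from the nearest of 2353 LTR12C copies of at least 1000 bases, in the direction in which that LTR would transcribe. Within 2000 bases downstream, 0.973% of copies had reads in PBS and 2.92% (2.25 to 3.79) in the Combination of set 1, and 1.68% and 7.36% (6.25 to 8.64) in set 2. Over 100000 bases downstream the shares were 0.892% and 1.14% in set 1 and 1.58% and 1.81% in set 2. Within 2000 bases upstream they were 0.573% and 0.860% in set 1 and 1.55% and 2.18% in set 2. The share in the Combination thus exceeded that far from LTR12C on the downstream side, in both sets, and the intervals did not overlap.

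In the 10000 bases downstream of LTR12C lie 7355 such copies. They held 165 reads in PBS and 222 in the Combination of set 1, and 178 and 671 in set 2. Per locus read outside the dominant copies, the Combination exceeded PBS 2.18-fold (1.77 to 2.68) in set 1 and 2.26-fold (1.91 to 2.68) in set 2. In the 10000 bases upstream, 7243 copies held 104 and 89, then 129 and 172 reads, with ratios of 1.38 (1.03 to 1.86) and 0.799 (0.632 to 1.01). The intervals of the downstream and upstream ratios overlapped in set 1 and did not in set 2. LTR12C copies under 1000 bases, 303 in number, had 829 copies of other families within 10000 bases downstream, with ratios of 0.580 (0.324 to 0.996) in set 1 and 0.910 (0.546 to 1.54) in set 2. One copy held 28 of the 53 PBS reads of set 1, and without the copy with most reads the ratio of set 1 was 1.23. Of the 20 copies outside the LTR12 and HERV9 families that rose, 4 lay within 10000 bases downstream of an LTR12C (20.0%) and 0 upstream, against 6 (2.01%) and 1 of the 298 tested. Of these 4, 3 belong to the stretch on chromosome 13 described above, which was seen before this comparison was chosen. Each of the 3 had 0 or 1 read in each PBS library and entered the test through treated libraries. The 4 copies are thus no separate support. Reads of that stretch are also among the downstream reads above. Without the copy with most Combination reads, the downstream ratios for LTR12C of at least 1000 bases were 2.25 in set 1 and 2.11 in set 2. Of the 29 copies that fell, 0 lay in either window.

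**Figure D4:**
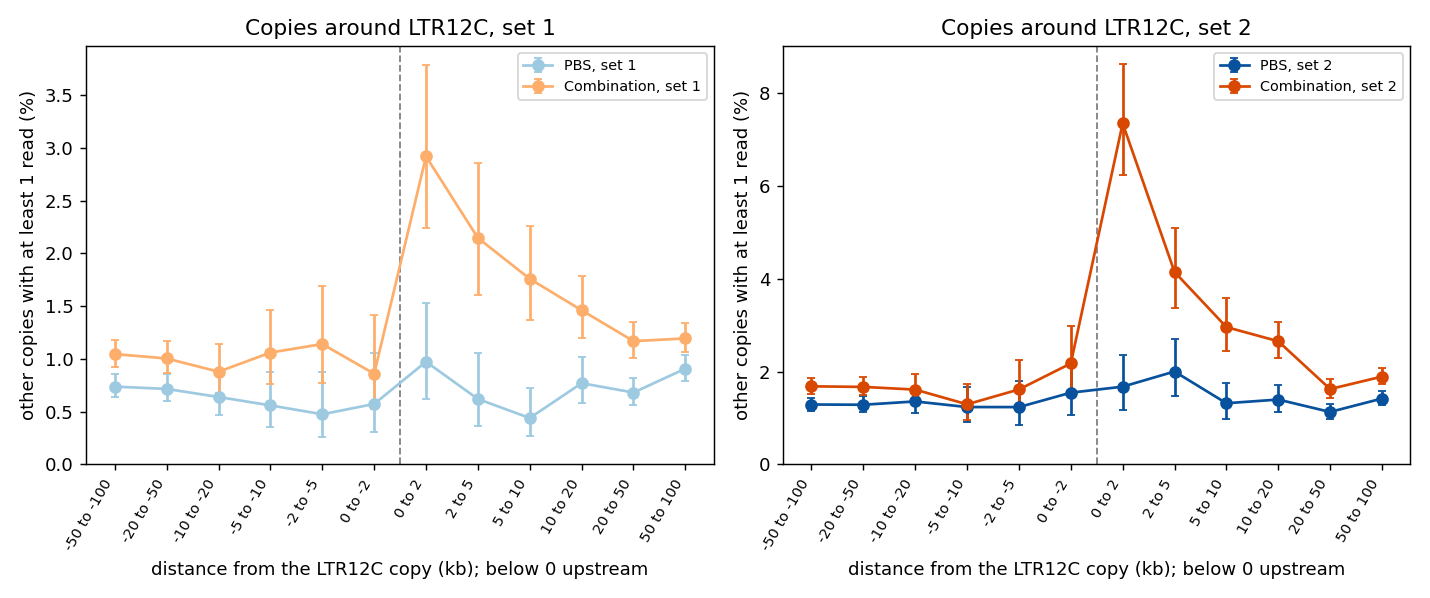
Percentage of copies outside the LTR12 and HERV9 families that had reads, by distance from the nearest LTR12C copy of at least 1000 bases (kb, negative is upstream), for PBS and the Combination of each set, with Wilson 95% intervals. The Combination is highest within 2 kb downstream, at 2.92% in set 1 and 7.36% in set 2.

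The fifth question was the length of the copies behind the signal. LTR12C copies were placed in 4 classes, with 213 under 500 bases, 90 from 500 to under 1000, 1534 from 1000 to under 1500 and 819 of 1500 or more. In the Combination of set 1 the share with reads was 13.1%, 22.2%, 41.1% and 52.4% from the shortest to the longest class, and in that of set 2 it was 21.6%, 36.7%, 64.6% and 71.8%. In PBS it was 0.939%, 2.22%, 4.04% and 5.25% in set 1 and 8.45%, 11.1%, 19.4% and 23.7% in set 2. The share was larger in each longer class, in all 4 libraries. The intervals of the classes under 1000 bases overlapped in every library, and in PBS those of all neighbouring classes did. In PBS of set 1 the classes under 1000 bases had 2 copies with reads each.

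A longer copy offers more bases to be read, so reads were also taken per kilobase of annotated copy and scaled to 1000000 locus reads. On this scale the Combination of set 1 held 65.1 in the shortest class, 31.2 and 46.9 in the middle classes and 75.3 in the longest, and that of set 2 held 77.6, 52.6, 62.7 and 97.3. The longest class was 1.16 times the shortest (0.868 to 1.58) in set 1 and 1.25 times (1.05 to 1.5) in set 2. With class limits at 300, 700 and 1200 bases the same ratios were 0.603 and 0.621, so no order by length per kilobase held. The Combination to PBS ratio was above 1 in every class, at 14.4 (12.2 to 17.1) and 20.9 (17.2 to 25.6) in the 2 longer classes of set 1. The 2 shorter classes of set 1 had 2 and 3 PBS reads, which left wide ratios of 38.8 (10.2 to 330) and 16.2 (5.03 to 82.8). In set 2 the ratios were 3.54 (2.24 to 5.84), 6.26 (3.37 to 12.9), 5.78 (5.24 to 6.39) and 6.60 (5.94 to 7.36) from the shortest to the longest class. For copies of all other families the ratios in the same classes were between 0.708 and 1.29 in set 1 and between 0.693 and 0.904 in set 2.

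**Figure D5:**
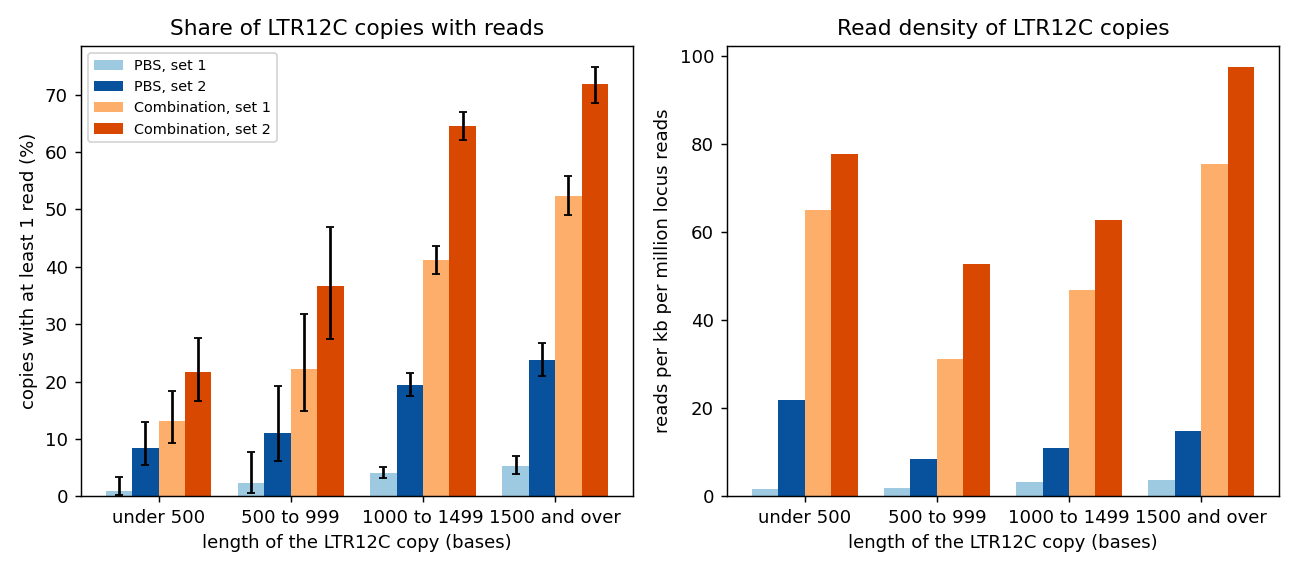
LTR12C by length class of the annotated copy, with the percentage of copies with reads and the reads per kilobase scaled to 1000000 locus reads, in PBS and the Combination of each set, with Wilson 95% intervals on the percentages. The percentage climbs with length in all 4 libraries, from 13.1% to 52.4% in the Combination of set 1. Intervals of the classes under 1000 bases overlap. In the Combination, reads per kilobase are lowest from 500 to under 1000 bases.

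The last question was strand. The files give the strand of each annotated copy but not that of the reads, so which strand of a double-stranded RNA was read was not analysed here. LTR12C has 1361 copies on the plus strand and 1295 on the minus strand, and 51.2% are thus plus. Of LTR12C reads in the Combination, 51.9% (50.1 to 53.7) lay on plus-strand copies in set 1 and 49.0% (47.9 to 50) in set 2. In PBS the shares were 59.6% (53.6 to 65.2) and 54.9% (51.5 to 58.2), in libraries where the copy with most reads held 12.5% and 11% of them. Counted as copies with reads, the plus share was 52.5% and 50.8% in the Combination and 48.6% and 50.6% in PBS. Every interval for copies held the 51.2% of the annotation. For reads, the interval held it in the Combination of set 1 alone. For copies of other families, without the 2 dominant ones, 51.7% and 49.9% of Combination reads lay on plus-strand copies, against 52.7% and 50% of PBS reads. With them the shares in set 1 were 12.3% for the Combination and 9.02% for PBS, because both dominant copies are annotated on the minus strand.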

How the data were processed

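J2 libraries of HCT116 were used as deposited. Per the file headers, the authors deposited a count of reads for each repeat family and each annotated copy, in 2 workbooks, and for set 1 a ratio of each family count to tRNA reads, from which the tRNA number was recovered. Genome build hg19 (all samples), Bowtie2 and Picard (set 2) are named in the submitters' processing notes. Which aligner was used in set 1, and how reads mapping to several copies were counted, are not given in the sources used here. Reads per copy of a young family such as LTR12C are therefore uncertain. Starts were made 1-based. Copy lengths came from the coordinates, because the stated length matched them at 48 of 397016 copies in a locus sheet of set 1. 2 lines were emptied before use, and 0 columns of samples were unused.

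Counts were fitted in R 4.3.3 by edgeR 4.0.16 (its quasi-likelihood test, TMM scaling, the default filter for families, at least 30 reads over 7 libraries for copies), with treatment and set as terms. The set is the workbook that a label names, and it is a block in the fit. Deviations from the group means correlated at 0.424 between the PBS and Combination libraries of a set, over 352 families. DESeq2 1.42.0 was an alternative. Thinned numbers are exact expectations (Python 3.11.15, SciPy 1.17.1, pandas 2.3.3). The fit and the thinning were run on simulated data as a check of the code. The counts simulated for the fit had less spread than these libraries and no difference between sets. That check therefore says nothing on how reliable the calls are here. Members, lists and tests were chosen with earlier results of these data known. Families named are those past the threshold, all tested members of the LTR12, HERV-Fc and LTR48 lists and the 10 with most Combination reads. Copies named are those with the largest differences of like direction in both sets (10 higher, 6 lower, at most 4 of a family), the leading copy of each family that passed, and 5 with 0 PBS reads. Copies on one chromosome were counted but are not named. Sequences were not printed, since no genome of this build was used here.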

Additional observations from a re-analysis of the deposited data

Results flagged for a closer look

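Set 1 also lists 8975 copies on alternative and unplaced sequences of the genome, which set 2 does not list and which entered no comparison above. They held 125 reads in PBS and 113 in the Combination, a ratio of 1.46 (1.12 to 1.90) per locus read outside the dominant copies, which is above the level in the control library. LTR12 and HERV9 copies supplied 20 of these PBS reads and 32 of these Combination reads. There is no second set to compare with, and the difference was not tested.

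The MER11B copy on chromosome 3, at 15779666 to 15780942, is in the locus sheets but not in the family counts of set 1. It held 3239 reads in PBS and 5144 in the Combination of set 1, a ratio of 2.57 (2.46 to 2.69), and 87 and 87 in set 2, a ratio of 0.599 (0.440 to 0.816). The sets thus differed in direction, and the difference between them was not tested.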

How the results depend on the processing

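Few reads per copy and 2 libraries per treatment limit these results, and the fits have 2 residual degrees of freedom. An exact permutation of 2 against 2 libraries that ignores the sets cannot give a two-sided p below 0.333. Swaps within each set alone leave fewer arrangements. Unless stated, the cause of a change was not tested. Counts of families are given as higher, then lower. In set 1 the at least 2-fold families were 75 and 1 by tRNA, and 28 and 46 of the 246 with at least 20 reads. In set 2 they were 9 and 3 by size factors, and 15 and 55 of the 266 with at least 20 reads. In the family fit, total reads in place of TMM gave 9 and 8, no filter on low counts 11 and 4, and only the 4 PBS and Combination libraries 6 and 0. Without the 5-Aza-CdR and Vc libraries of set 2, which was tried after the data were seen, 3 rose and 0 fell (16 with an unadjusted edgeR p under 0.05). DESeq2 (10 and 1), RLE size factors (9 and 1) and sums of the locus sheets (8 and 1) stayed within 1.5 times. Without the set as a replicate block, 2 families rose and 0 fell (17 unadjusted), and 0 copies rose and 0 fell (90 unadjusted), of which 0 were LTR12C. LTR12E, LTR12C, LTR12_, HERV-Fc1-int, LTR48B, MSTB2 and LTR10F did not pass without that block. Over the 12 alternatives LTR12E passed in 11, LTR12_ in 10, LTR12C, HERV-Fc1-int and LTR48B in 9, MSTB2 in 7 and LTR10F in 6. With each library left out in turn, 6 to 34 families rose and 0 to 32 fell, 0 to 100 copies rose and 0 to 39 fell, and 0 to 76 LTR12C copies rose. The lone library left in a group is assumed to vary like the others. The 34 and 32 families came without PBS of set 2, and 22 and 9 without PBS of set 1. In the copy fit, DESeq2 gave 18 higher and 0 lower (93 unadjusted), with 15 LTR12C, total reads gave 17 lower, at least 20 reads gave 132 LTR12C, and at least 50 reads gave 36 and 6, with 30 LTR12C. Only the 4 PBS and Combination libraries gave 26 and 4, with 20 LTR12C. Among families that did not pass above, the sign turned for THE1B-int with total reads (-0.20), and for MLT1C with total reads (-0.28), no filter (-0.011), only the 4 libraries (-0.062) and without the 5-Aza-CdR and Vc libraries of set 2 (-0.037). With each library left out in turn, these families also crossed 0: MLT1A0 (-0.78 to 0.010), MER21C (-0.57 to 0.063), LTR12F (-0.18 to 1.37), MSTA (-0.52 to 0.029), HERVH-int (-0.59 to 0.13), THE1B-int (-0.31 to 0.46), MLT1B (-0.34 to 0.11), THE1B (-0.61 to 0.59) and MLT1C (-0.36 to 0.36). The breadth ratio of LTR12C was 22.0 and 2.69 in set 1 and set 2 with the dominant copies kept in the thinning, 10.2 in set 1 as counted, and 8.52 in set 2 for copies with at least 2 reads. That of other families was 1.73 in set 1 with dominant copies kept and 1.33 as counted, and it turned to 0.415 for copies with at least 2 reads. In set 2 it turned to 1.37 for copies with at least 2 reads and to 1.18 as counted. Other class limits gave length ratios of 0.603 and 0.621, and leaving out the dominant copies moved the plus-strand share of set 1 to 51.7%. Relative to reads outside LTR12 and HERV9, an alternative added after seeing the data, the downstream ratios were 2.79 and 3.10 and the upstream ratio of set 2 turned to 1.10.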
